A study of Mus musculus with 23 samples.

Results

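The genes described here are cyclins and cyclin-dependent kinases (CDKs) with a role in meiotic prophase: the A-type cyclins Ccna1 and Ccna2, the B-type cyclins Ccnb1, Ccnb2 and Ccnb3, the E-type cyclins Ccne1 and Ccne2, and the kinases Cdk1 and Cdk2. They were taken by gene symbol from the platform annotation of the array. Of the 9 genes 8 had a probe set, 1 each, among 19661 genes with a single symbol, and Ccnb1 was not analysed here because the annotation used lists no probe set under that name. All 8 passed the limit on dim signal, a mean log2 signal of 5.125 over all arrays, which left 14746 genes for testing. Ccnb3 lies on the X chromosome and the other 7 measured genes on autosomes. In GRCm38.p6 they span chr3:55045469-55057634 (Ccna1), chr3:36564865-36573038 (Ccna2), chr9:70407689-70421554 (Ccnb2), chrX:6979652-7041635 (Ccnb3), chr7:38097984-38107490 (Ccne1), chr4:11190433-11204779 (Ccne2), chr10:69335146-69352912 (Cdk1) and chr10:128697938-128705051 (Cdk2).

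Levels come from 23 Affymetrix Mouse Gene 1.0 ST arrays of spermatogenic cells isolated from juvenile testes at 14.5 days of age, when the leading wave of germ cells is in meiotic prophase, and each array held RNA pooled from 4 testes. The groups were the inbred strains PWD (3 arrays), wild-derived and of the subspecies Mus musculus musculus, and B6 (3), a laboratory strain whose genome is mostly that of Mus musculus domesticus. Both directions of the cross between them were measured, PWDxB6 (3) and B6xPWD (3), together with F1s within a subspecies, PWDxPWK (2), B6xBALB/C (6) and BALB/CxB6 (3). By convention the mother's strain comes first, so PWDxB6 males carry the X of PWD and B6xPWD males the X of B6, while both have 1 set of autosomes from each strain. In this field PWDxB6 males are described as sterile, with an arrest in meiosis. Whether pools of a genotype came from separate litters is not in the labels, and the p-values therefore cover only the spread among these pools.

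A cyclin binds a CDK and switches the kinase on, and different cyclins are made and destroyed at different times of the cell cycle. In the testis, E-type cyclins with Cdk2 act in meiotic prophase, where Cdk2 is needed for synapsis and sits at telomeres. Ccna1 is a germ cell cyclin required for spermatocytes to leave prophase, and Ccna2 drives DNA replication and mitosis of dividing cells. Ccnb1 and Ccnb2 activate Cdk1 for entry into division. Ccnb3 is known for its expression in leptotene and zygotene spermatocytes.

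Promoter sequence is shown for the pair of genes that rose in both hybrids, Ccnb3 and Cdk1, and for the other measured B-type cyclin, Ccnb2, for comparison. Each is the 250 bases before the start used in the RefSeq promoter table (GRCm38.p6), 5′ to 3′ on the strand of the gene, which is the minus strand for each. The positions are chrX:7041620-7041869 for Ccnb3, chr10:69352913-69353162 for Cdk1 and chr9:70421555-70421804 for Ccnb2. The last 16 bases of the Ccnb3 window lie inside the gene span given above, whose start is therefore not the one the table used, while the Cdk1 and Ccnb2 windows end where their spans begin. Capitals mark matches on either strand to the CCAAT box (CCAAT), the CHR element of genes of the G2 and M phases (TTTGAA) and E2F-like letters (TTCCCGC or TTGGCGC), each also searched as its reverse complement. An E2F-like match can overlap a CCAAT box.
Ccnb3: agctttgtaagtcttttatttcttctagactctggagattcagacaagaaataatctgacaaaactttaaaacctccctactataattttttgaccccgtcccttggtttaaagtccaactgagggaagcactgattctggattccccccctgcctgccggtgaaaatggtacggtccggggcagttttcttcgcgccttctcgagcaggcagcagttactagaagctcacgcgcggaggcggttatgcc
Cdk1: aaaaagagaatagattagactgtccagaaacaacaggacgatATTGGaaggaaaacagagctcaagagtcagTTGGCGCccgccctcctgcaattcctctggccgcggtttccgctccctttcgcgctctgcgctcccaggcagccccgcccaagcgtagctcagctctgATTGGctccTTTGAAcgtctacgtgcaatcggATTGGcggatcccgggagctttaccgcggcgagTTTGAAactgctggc
Ccnb2: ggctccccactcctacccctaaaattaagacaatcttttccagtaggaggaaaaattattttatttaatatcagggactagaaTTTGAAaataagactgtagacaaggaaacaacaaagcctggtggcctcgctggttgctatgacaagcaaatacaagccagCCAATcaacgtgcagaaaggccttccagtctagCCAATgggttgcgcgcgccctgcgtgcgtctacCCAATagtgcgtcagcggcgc
The Ccnb3 window held 0 of these motifs. The Cdk1 window held 3 CCAAT boxes, 2 CHR matches and 1 E2F-like match, and no match overlapped another there. The Ccnb2 window held 3 CCAAT boxes and 1 CHR match. Among 32851 windows of that length in the table, 33.8% held a CCAAT box, 16% a CHR match, 5.55% both and 5.62% an E2F-like match. These are letter matches and not binding sites. The CHR matches of Cdk1 began 71 and 15 bases before the start and that of Ccnb2 167 bases before it. Of the other measured genes, windows were found for Ccna1 (1 CCAAT box, in a window that lies wholly inside the gene span), Ccne1 (0 matches) and Cdk2 (1 CCAAT box and 2 E2F-like matches).

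RNA of somatic as well as germ cell markers was present in the preparations. All 13 leptotene and zygotene markers (Sycp1, Dmc1 and Hormad1 among them), all 10 spermatogonial markers and all 9 proliferation markers on the array were above the limit on dim signal, as were all 9 Sertoli cell and all 9 peritubular and stromal markers. Of pachytene markers 11 of 13 were above it, of spermatid markers 7 of 9, with Tnp1 and Tnp2 below. The limit leaves out only the dimmest 25% of all genes, so passing it does not by itself show a cell type. The spermatid count is near the share of all genes that pass, and those markers lay at a mean percentile of 29.5, close to the limit. In these bulk samples fewer cells of a type and less RNA per cell cannot be told apart. The mean of the pachytene markers, relative to its mean over all arrays, ran from -0.74 to -0.39 in PWDxB6, from -0.75 to -0.59 in PWD, from -0.06 to 0.46 in B6xPWD and from 0.16 to 0.56 in B6. One array stood apart: B6xBALB/C replicate 6 was at -0.70 for these markers, against 0.42 to 1.13 in the other 5 arrays of that genotype. The B6 arrays had the highest group means for Leydig (0.31 to 0.61), endothelial (0.24 to 0.53) and macrophage markers (0.18 to 0.44), though 3 of 6 macrophage markers, Adgre1 among them, were below the limit. Leydig markers were dim too: 3 of the 4 on the array were above the limit, and the 4 lay at a mean percentile of 33.2. B6 was also highest for Sertoli (0.07 to 0.22) and peritubular and stromal markers (0.11 to 0.37). It was lowest for leptotene and zygotene (-0.47 to -0.10) and spermatogonial markers (-0.25 to -0.07).

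Ccnb3 was the member that varied most across genotypes. Its log2 signal spanned 2.93 over the 23 arrays, while the other 7 genes spanned 0.30 (Cdk2) to 1.13 (Cdk1). In PWDxB6 the arrays read 9.06, 9.23 and 8.78, and in B6xPWD they read 7.76, 8.24 and 8.33. In PWD they read 7.81, 8.01 and 8.19, in PWDxPWK 8.15 and 7.86, in B6 7.03, 6.298 and 6.89, and in BALB/CxB6 7.22, 7.34 and 7.12. B6xBALB/C ran from 6.95 through a median of 7.16 to 7.38. Each PWDxB6 array was above every array of the other 6 genotypes, and every array of B6, BALB/CxB6 and B6xBALB/C was below every array of the other 4 genotypes.

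The order of the Ccnb3 group means was PWDxB6 (9.02 ± 0.23, SD, n = 3), B6xPWD (8.11 ± 0.31, n = 3), PWDxPWK (8.01 ± 0.21, n = 2), PWD (8.003 ± 0.187, n = 3), BALB/CxB6 (7.23 ± 0.11, n = 3), B6xBALB/C (7.17 ± 0.17, n = 6) and B6 (6.74 ± 0.39, n = 3). Ranges of neighbours in this order overlapped, except between PWDxB6 and B6xPWD and between PWD and BALB/CxB6. B6xPWD, with the X of B6, thus lay beside the groups with the X of PWD.

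**Figure D1:**
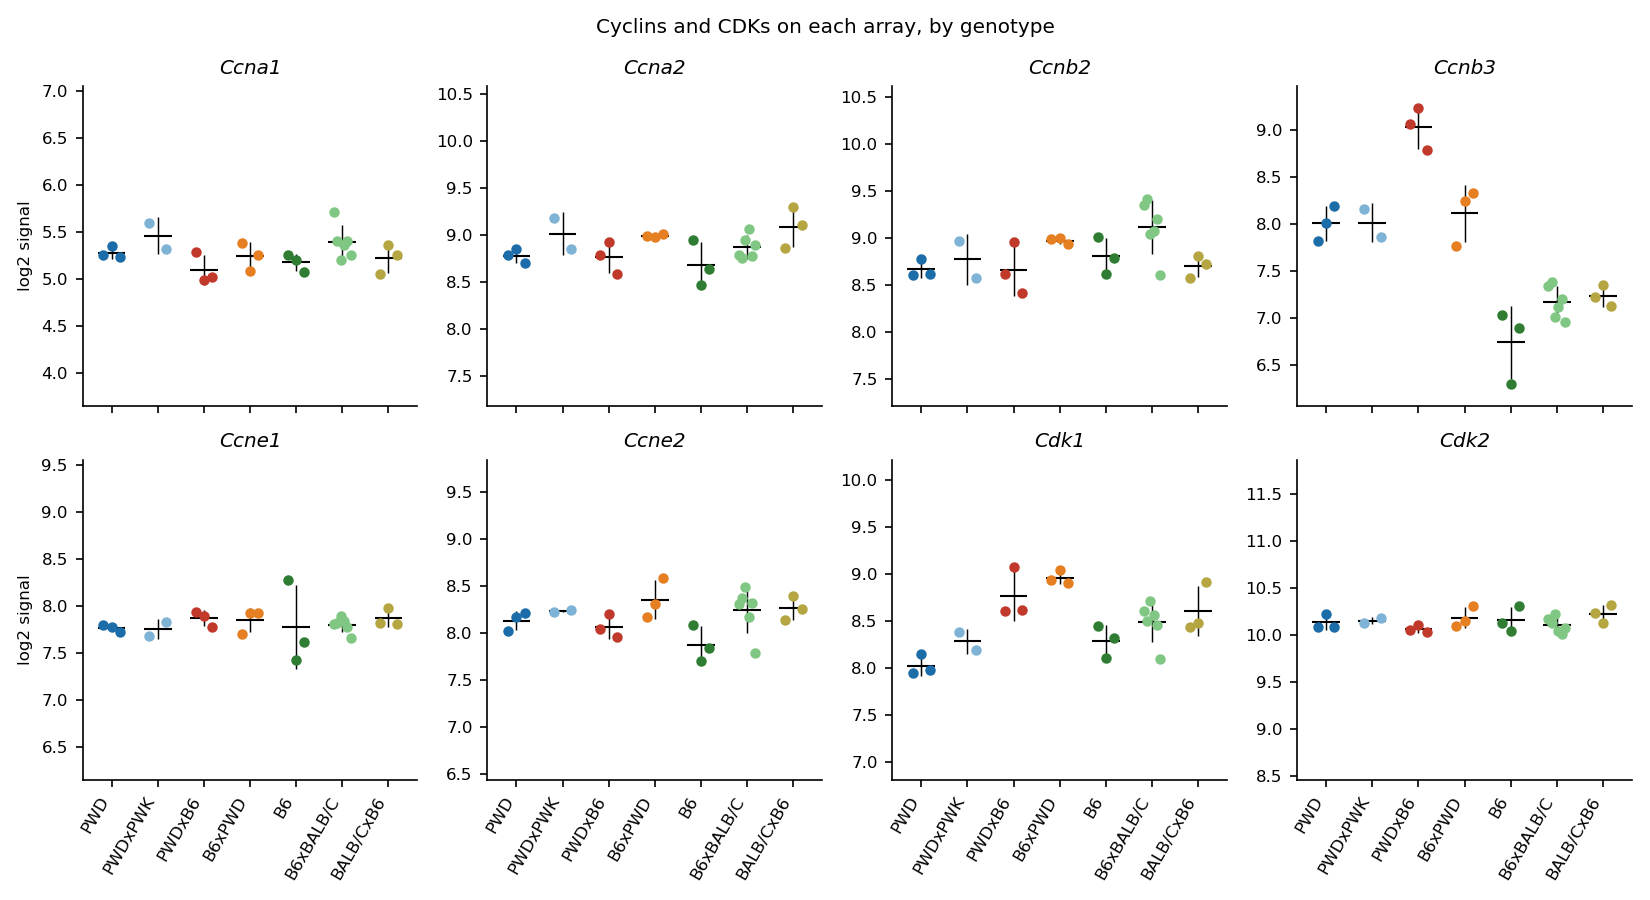
Log2 signal of the 8 measured cyclins and CDKs (1 panel each, every panel spanning the same number of log2 units) on each array, grouped by genotype on the x axis. Points are arrays, the horizontal bar is the group mean and the vertical line 1 SD; Ccnb3 spans 2.93 log2 units, with PWDxB6 on top and B6 lowest, and Cdk2 spans 0.30.

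Both hybrids had more Ccnb3 than the inbred strain with the same X chromosome, where the same Ccnb3 allele is set side by side. PWDxB6 was 1.02 higher than PWD on the log2 scale (2.03-fold, SE 0.175, limma adjusted p = 0.00119), without overlap of the arrays, where 22.9% of all tested genes had ranges that did not overlap. B6xPWD was 1.37 higher than B6 (2.59-fold, SE 0.175, adjusted p = 4.21e-05), also without overlap, where 31.9% of all tested genes had such ranges. The difference between these departures was -0.35 (SE 0.247, 95% confidence interval -0.86 to 0.16, adjusted p = 0.431), so the test did not separate them. The PWD strain itself was 1.27 above B6 (SE 0.175, adjusted p = 1.84e-05).

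For Ccnb3, 2 comparisons within a subspecies were tested and neither passed. PWDxPWK differed from PWD by 0.00 (confidence interval -0.40 to 0.41, adjusted p = 1), and B6xBALB/C from BALB/CxB6 by -0.06 (-0.37 to 0.25, adjusted p = 0.918), or by -0.02 without B6xBALB/C replicate 6. Inbred B6, at 6.74, was not tested against B6xBALB/C, at 7.17, or BALB/CxB6, at 7.23. The B6 arrays, at 6.298 to 7.03, overlapped those of B6xBALB/C and lay below those of BALB/CxB6, at 7.12 to 7.34. Against F1s with the same mother's strain, PWDxB6 was 1.02 above PWDxPWK (SE 0.195, adjusted p = 0.0046). That call rests on a group of 2 arrays and was lost without PWDxPWK replicate 2 (0.87, adjusted p = 0.129). B6xPWD was 0.94 above B6xBALB/C (SE 0.151, adjusted p = 0.000454), and 0.90 above it without B6xBALB/C replicate 6 (adjusted p = 0.000458). Over all genes, 1.43% were called in the former comparison and 9.3% in the latter.

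Between the reciprocal hybrids, Ccnb3 was 0.91 higher in PWDxB6 (1.89-fold, SE 0.175, limma adjusted p = 0.00809). It was the 1 member called of 8, where 2.83% of all tested genes were called and 1.33% were called higher. That count of 418 genes was 54 without PWDxB6 replicate 3, 59 without B6xPWD replicate 2, 81 without PWDxB6 replicate 1 and 851 without B6xBALB/C replicate 6, while Ccnb3 was called in each of those fits. The median of the 8 differences was -0.17, against 0.03 over all tested genes, and 6 of the 8 were negative. Ccnb2, which partners Cdk1, was at 8.61, 8.96 and 8.42 in PWDxB6 and at 8.99, 8.998 and 8.93 in B6xPWD and differed by -0.31 (confidence interval -0.65 to 0.03, adjusted p = 0.283). Ccne2 differed by -0.29 (-0.59 to 0.01, adjusted p = 0.253) and Ccna2 by -0.22 (-0.49 to 0.05, adjusted p = 0.325). The Ccna2 ranges did not overlap, 8.59 to 8.93 against 8.97 to 9.01, where the ranges of 24% of all tested genes did not. The hybrids carry different alleles of the X-linked Ccnb3, so the allele and the direction of the cross cannot be told apart here. With array weights, a setting under which 4635 genes were called in place of 418, Ccna2, Ccnb2, Ccne2 and Cdk1 also passed, each lower in PWDxB6. Marker lists moved beside these values. Of 11 pachytene markers 0 were called by limma, where 3112 of all tested genes had an unadjusted p under 0.05, but all 11 had negative differences, with a median of -0.61, and their mean was at -0.74 to -0.39 in PWDxB6 and -0.06 to 0.46 in B6xPWD. Ccnb2 correlated with that mean at r = 0.83 over the 23 arrays. Leptotene and zygotene markers were at -0.13 to 0.08 and 0.11 to 0.18, with 1 of 13 called lower (Tex101), and of 9 peritubular and stromal markers 2 (Des and Cnn1) were called higher in PWDxB6. The part of these lists was not tested.

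Ccnb3 was set against the other cyclins on each array, with every gene taken relative to its own mean over all arrays. The mean of the 5 other cyclins measured (Ccna1, Ccna2, Ccnb2, Ccne1 and Ccne2) stayed within -0.32 and 0.20 on every array. Ccnb3 minus that mean was 1.46 ± 0.10 (SD, n = 3) in PWDxB6, 0.41 ± 0.19 (n = 3) in PWD, 0.36 ± 0.27 (n = 3) in B6xPWD and 0.29 ± 0.09 (n = 2) in PWDxPWK. It was -0.47 ± 0.12 (n = 3) in BALB/CxB6, -0.58 ± 0.11 (n = 6) in B6xBALB/C and -0.79 ± 0.24 (n = 3) in B6. The 3 PWDxB6 arrays, at 1.36 to 1.57, lay above the next highest array, a PWD array at 0.62. These values are a description with no test, since the genes were chosen with results known.

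**Figure D2:**
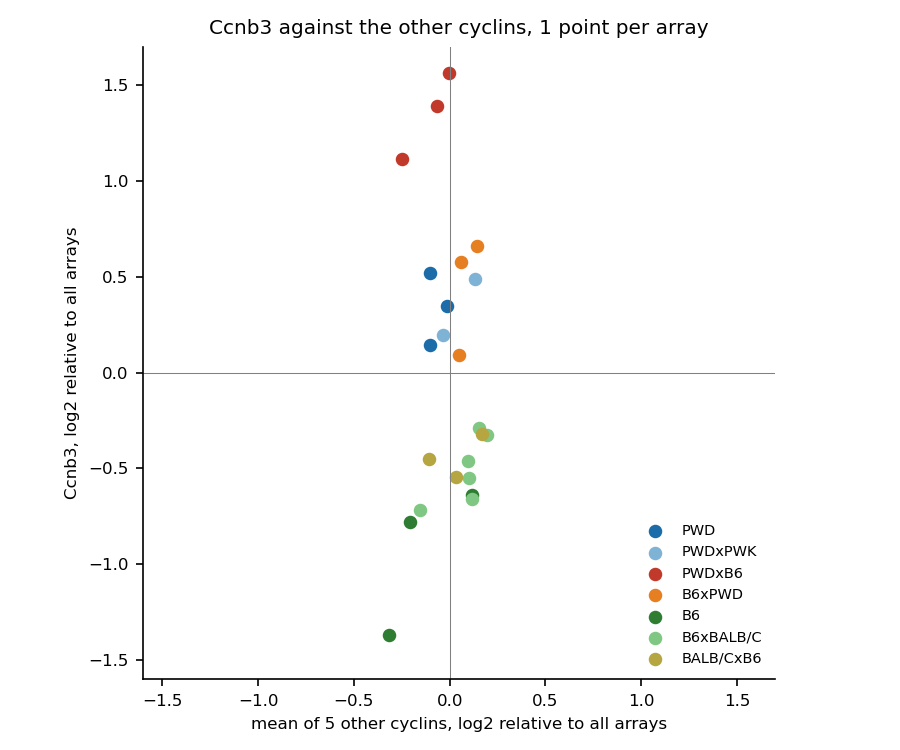
Ccnb3 (y axis) against the mean of the 5 other cyclins (x axis) on each of 23 arrays, both as log2 signal relative to the mean over all arrays and drawn to the same scale, coloured by genotype. The points spread from -1.37 to 1.57 along the Ccnb3 axis and from -0.32 to 0.20 along the other.

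Cdk1, the kinase that drives entry into division, was raised in both hybrids. Its arrays read 8.61, 9.08 and 8.61 in PWDxB6 and 8.93, 9.04 and 8.91 in B6xPWD. In PWD they read 7.94, 8.14 and 7.97 and in B6 8.44, 8.10 and 8.31. Every array of either hybrid was thus above every array of either parental strain. Ranges did not overlap for 22.9% of all tested genes between PWDxB6 and PWD, and for 31.9% between B6xPWD and B6. PWDxB6 was 0.75 above PWD (1.68-fold, SE 0.151, limma adjusted p = 0.0062), a call lost without PWDxB6 replicate 2 (0.59, adjusted p = 0.0692). B6xPWD was 0.67 above B6 (1.59-fold, SE 0.151, adjusted p = 0.00505).

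The proliferation markers, 9 genes such as Mki67 and Top2a, had 0 calls between PWDxB6 and PWD, where 2.31% of all tested genes were called by limma and 1954 had an unadjusted p under 0.05, and their mean was at -0.21 to -0.06 and -0.11 to -0.0047 in those groups. Between B6xPWD and B6, 2 of the 9 were called higher, where 9.7% of all genes were. There the proliferation mean was at -0.0030 to 0.13 in B6xPWD and at -0.31 to -0.04 in B6, and its part was not tested. The peritubular and stromal marker mean, with which Cdk1 correlated at r = -0.76 as deviations from the genotype means, was at -0.09 to 0.25 in PWDxB6, 0.03 to 0.24 in PWD, -0.23 to -0.11 in B6xPWD and 0.11 to 0.37 in B6, and its part was not tested. Other lists had similar r with Cdk1 as such deviations: Leydig -0.72, macrophage -0.68 and endothelial -0.59. For germ cell and proliferation lists r was positive: leptotene and zygotene 0.645, proliferation 0.58, pachytene 0.555 and spermatogonia 0.51. With the Sertoli list r was -0.27.

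For an autosomal gene the mean of both strains is the like reference, since both hybrids carry 1 set of autosomes from each. Against it Cdk1 was 0.61 higher in PWDxB6 (SE 0.131, adjusted p = 0.024) and 0.81 higher in B6xPWD (SE 0.131, adjusted p = 0.0012). The same parental arrays enter both comparisons. In PWDxB6 that call was lost without PWD replicate 1 (adjusted p = 0.0638) or 3 (0.0584), B6 replicate 2 (0.0674) or PWDxB6 replicate 2 (0.46, adjusted p = 0.364). Here 2 of 8 members, Ccnb3 and Cdk1, were called in each hybrid, against 0.671% of all tested genes for PWDxB6 and 14.5% for B6xPWD. For the X-linked Ccnb3 this reference holds part of the difference between PWD and B6, since hybrid males carry the X of 1 strain. The reciprocal hybrids differed in Cdk1 by -0.19 (confidence interval -0.51 to 0.12, adjusted p = 0.475), and PWD from B6 by -0.27 (-0.58 to 0.05, adjusted p = 0.241).

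The F1s within a subspecies had Cdk1 means of 8.28 to 8.61, below those of both hybrids. The arrays read 8.38 and 8.19 in PWDxPWK, 8.43, 8.48 and 8.91 in BALB/CxB6 and from 8.10 to 8.71 with a median of 8.52 in B6xBALB/C, so some arrays of the last pair of groups reached the hybrid range. B6xPWD was 0.47 above B6xBALB/C (SE 0.131, adjusted p = 0.0258). Without B6xBALB/C replicate 6 the difference was 0.39 (adjusted p = 0.0339), and the call was lost with B6xBALB/C replicates 1 to 3 alone (0.35, adjusted p = 0.111) and without B6xPWD replicate 1 (0.49, adjusted p = 0.063), 2 (0.43, adjusted p = 0.114) or 3 (0.50, adjusted p = 0.0551). PWDxB6 was 0.48 above PWDxPWK (confidence interval 0.13 to 0.83, adjusted p = 0.207), which did not pass.

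Cdk2, the partner of E-type and A-type cyclins, varied least. Its group means lay between 10.07 ± 0.04 (SD, n = 3) in PWDxB6 and 10.23 ± 0.09 (n = 3) in BALB/CxB6. The reciprocal difference was -0.12 (confidence interval -0.31 to 0.07), the difference between PWDxB6 and PWD -0.07 (-0.26 to 0.12) and that between B6xPWD and B6 0.02 (-0.17 to 0.22), and 0 of 11 comparisons passed.

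Of the E-type cyclins, Ccne2 was higher in B6xPWD than in B6 and Ccne1 had no call. Ccne2 read 8.17, 8.32 and 8.59 in B6xPWD and 8.09, 7.71 and 7.84 in B6. These groups did not overlap, where 31.9% of all tested genes had such ranges. The difference was 0.48 (1.39-fold, SE 0.144, limma adjusted p = 0.0266). The call was lost without B6 replicate 2 (0.39, adjusted p = 0.119) or 3 (0.46, 0.0613), without B6xPWD replicate 2 (0.50, 0.0624) or 3 (0.36, 0.114) and with those groups fitted alone (adjusted p = 0.0622). Against B6xBALB/C, a group with the same X, Ccne2 in B6xPWD differed by 0.11 (confidence interval -0.15 to 0.37, adjusted p = 0.615), and against PWD it differed by -0.07 in PWDxB6 (-0.37 to 0.23). The difference between the departures of the hybrids from their same-X strains was -0.54 (SE 0.204, adjusted p = 0.1), which passed without B6xBALB/C replicate 6 (adjusted p = 0.0393). Against the mean of both strains Ccne2 in B6xPWD was at 0.35 (adjusted p = 0.0612), which passed without that array (adjusted p = 0.0228) or without B6 replicate 1 (0.40, adjusted p = 0.0449). Ccne1 had group means from 7.76 to 7.87, and its B6 arrays were the most scattered, at 8.28, 7.43 and 7.62. Without B6 replicate 1, Ccne1 was 0.33 higher in B6xPWD than in B6 (adjusted p = 0.0495).

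In the comparison of B6xPWD with B6, 3 of 8 members were called, all higher, where 17% of all tested genes were called, 9.7% called higher and 7.27% called lower. The split over all genes, 1431 higher and 1072 lower, became 1149 and 1329 when each array was centred at the median of its tested autosomal genes. All 8 members had positive differences, with a median of 0.24 against -0.01 over all tested genes. Somatic and meiotic markers differed between these groups too. The leptotene and zygotene markers were at 0.11 to 0.18 in B6xPWD and -0.47 to -0.10 in B6, the endothelial markers at -0.53 to -0.01 and 0.24 to 0.53, and the Leydig markers at -0.43 to -0.11 and 0.31 to 0.61. The Sertoli markers were at -0.13 to -0.05 and 0.07 to 0.22, with 2 of 9 (Wt1 and Gata4) called lower in B6xPWD. Also called lower were 4 of 5 endothelial, 2 of 3 Leydig and 3 of 9 peritubular and stromal markers, to be read against that 7.27%. Of 13 leptotene and zygotene markers 3 were called higher and all 13 differences were positive, while of 11 pachytene markers 0 were called and 3 differences were positive. The part of these marker lists in the differences of the 8 members was not tested. PWDxB6 against PWD had 2 of 8 called, both higher, where 2.31% of all genes were called and 1.33% called higher, and there the median of the 8 was -0.01, as it was over all genes. The leptotene and zygotene ranges in that comparison, -0.13 to 0.08 and -0.17 to 0.08, overlapped. Of the 8 members 1, Ccnb3, was called between PWD and B6, where 18.4% of all genes were.

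In the fit without array weights the A-type cyclins and Ccnb2 had no call in any of the 11 comparisons. Ccna1, near the limit on dim signal with a mean of 5.27 over all arrays, ran from 5.10 ± 0.16 (SD, n = 3) in PWDxB6 to 5.46 ± 0.19 (n = 2) in PWDxPWK. PWDxB6 minus PWDxPWK was -0.36 (confidence interval -0.65 to -0.07, adjusted p = 0.279). B6xPWD minus B6xBALB/C was -0.15 (adjusted p = 0.414), and with array weights -0.33 (adjusted p = 0.00893), a call. Ccna2 ran from 8.68 ± 0.24 (n = 3) in B6 to 9.09 ± 0.22 (n = 3) in BALB/CxB6. It was 8.99, 8.97 and 9.01 in B6xPWD against 8.94, 8.47 and 8.63 in B6, a difference of 0.31 (confidence interval 0.04 to 0.58, adjusted p = 0.103) that passed without B6 replicate 1 (0.44, adjusted p = 0.0401) and with array weights (adjusted p = 0.0491).

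Ccnb2 was the member that differed most between the reciprocal crosses of B6 and BALB/C. It ran from 8.61 to 9.42 with a median of 9.14 in B6xBALB/C and read 8.57, 8.81 and 8.72 in BALB/CxB6. The difference was 0.41 (confidence interval 0.11 to 0.71, adjusted p = 0.16). B6xBALB/C replicate 6 held the lowest value, 8.61, and without it the difference was 0.51 and passed (adjusted p = 0.00899). The pachytene markers were at -0.29 to -0.22 in BALB/CxB6 and at 0.42 to 1.13 in the B6xBALB/C arrays other than replicate 6, and their part was not tested. In this cross 0 of 8 members were called by limma, where 0.441% of all genes were called and 2095 genes had an unadjusted p under 0.05. PWDxPWK against PWD also had 0 of 8, with 0.00678% of all genes called and 419 at an unadjusted p under 0.05. In the difference of departures from the same-X strain, 0 of 8 were called against 9.01% of all genes, and 3427 genes had an unadjusted p under 0.05.

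**Figure D3:**
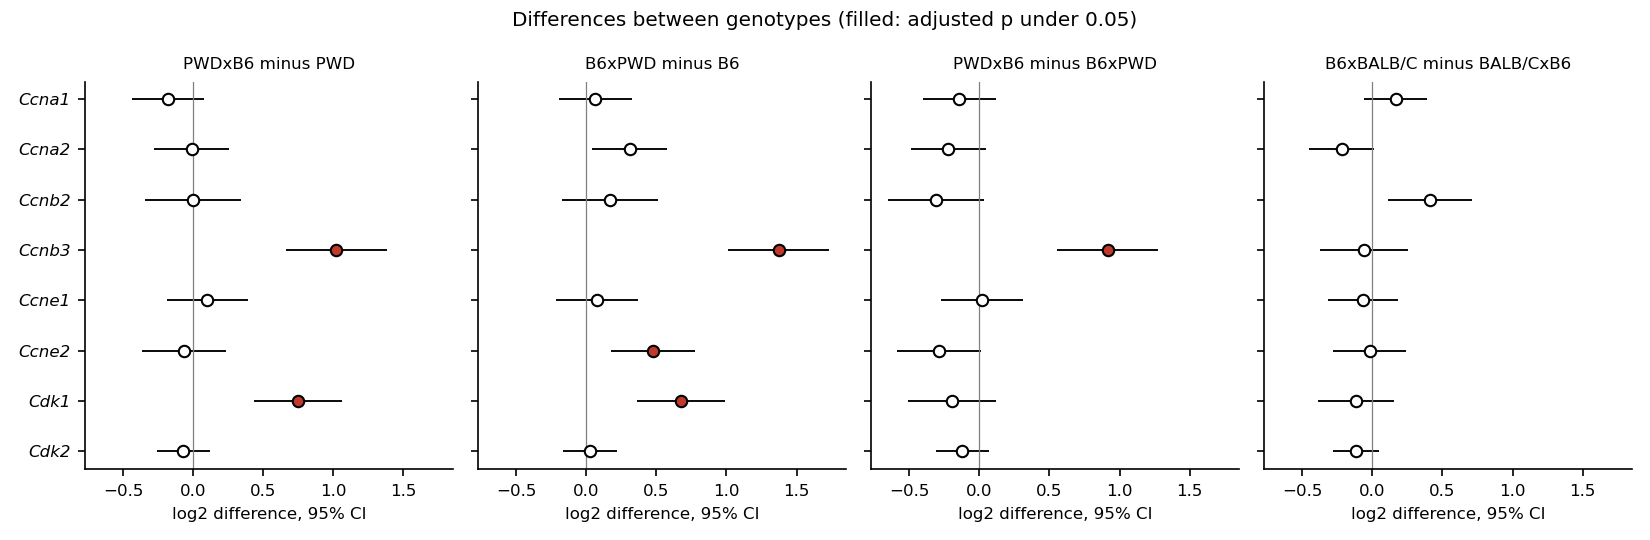
Log2 differences of the 8 genes in 4 comparisons, with 95% confidence intervals from the limma fit; filled points passed at an adjusted p under 0.05. Ccnb3 and Cdk1 passed in both comparisons with the same-X strain, Ccne2 in 1 of them, Ccnb3 between the reciprocal hybrids, and none between the B6 and BALB/C crosses.

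Patterns of single members over the arrays were only loosely alike. Over the 23 arrays Ccnb3 correlated with the other members at r = -0.19 (Ccna1) to 0.34 (Cdk1). As deviations from the genotype means, where the genotype differences are taken out, Ccnb3 correlated at r = 0.68 with Ccnb2, 0.66 with Ccne2 and 0.58 with Ccne1. Ccnb2 and Cdk1 correlated at 0.40 over arrays and 0.70 as deviations, and Ccnb2 and Ccne2 at 0.56 and 0.68. The points share the array and its cell makeup, so these are descriptions. The leptotene and zygotene marker mean correlated with Ccne2 at 0.84, with Ccnb2 at 0.80 and with Ccnb3 at 0.65 as deviations, and with Ccna2 at 0.08, while the proliferation marker mean correlated with Ccna2 at 0.73.

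The tested genes with the pattern most like Ccnb3, by Pearson r of log2 values over the 23 arrays, were Maoa (r = 0.96), a monoamine oxidase, Nxt2 (0.95), an mRNA export factor, 1700080O16Rik (0.94), Dcaf8l (0.93) and Scml2 (0.92), a germline Polycomb protein, each on the X chromosome. As deviations from the genotype means their r was 0.71, 0.57, 0.60, 0.76 and 0.84. Their mean levels in PWDxB6 and B6xPWD were 7.80 and 7.29 for Maoa and 10.26 and 9.98 for Scml2. Between these hybrids 1700080O16Rik (0.76, limma adjusted p = 0.0665), Dcaf8l (0.45, 0.259) and Scml2 (0.28, 0.215) did not pass. The differences were 0.51 for Maoa (adjusted p = 0.0284) and 0.50 for Nxt2 (0.0498). Likeness to Ccnb3 on these same arrays picked the genes, so the values are a description. The autosomal genes most like Ccna1 were Stox1 (r = 0.79), Cutc (0.68), Mcf2l (0.67), Ccdc112 (0.66) and Crtam (0.65), a looser likeness.

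Genes that act on cyclin-CDK complexes were taken from lists of 106 genes, of which 97 were on the array and 96 were tested. Between the reciprocal hybrids 3 of 96 were called, or 3.12% against 2.83% of all genes, and 33 differences were positive. Ccnb1ip1, a crossover factor known for its binding to cyclin B, was at 7.52 ± 0.15 (SD, n = 3) in PWDxB6 and 8.32 ± 0.21 (n = 3) in B6xPWD (-0.80, SE 0.164, adjusted p = 0.0129). Anapc1, a subunit of the anaphase-promoting complex that marks cyclins for destruction, was at 10.25 ± 0.08 and 10.63 ± 0.07 (-0.38, SE 0.0934, adjusted p = 0.0328). Cdk16, a kinase gene on the X, was at 9.79 ± 0.10 and 9.22 ± 0.05, higher by 0.57 (SE 0.141, adjusted p = 0.0326). Against PWD, Anapc1 was the 1 gene of 96 called in PWDxB6 (-0.41, SE 0.0934, adjusted p = 0.017), or 1.04% against 2.31%.

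In B6xPWD against B6, 21 of the 96 partner genes were called, 17 higher and 4 lower, or 21.9% against 17% of all genes, with a median difference of 0.17. CDK inhibitors rose in 5 of 7 tested genes, with a median of 0.55 for the 7, where 9.7% of all genes were called higher. Against B6xBALB/C, an F1 with the same X, 2 of these 7 (Cdkn1c and Cdkn2d) were called, both higher in B6xPWD. The median of the 7 was 0.11, and 9.3% of all genes were called in either direction. Cdkn2d, which binds the kinases of D-type cyclins, was at 8.73 ± 0.31 (SD, n = 3) in B6xPWD and 7.95 ± 0.05 (n = 3) in B6 (0.78, adjusted p = 0.00391). Cdkn1c, an imprinted inhibitor of cyclin-CDK complexes, was at 7.71 ± 0.16 and 6.95 ± 0.28 (0.76, adjusted p = 0.00304). Cdkn3, a phosphatase that acts on CDKs, rose by 0.60, Cdkn2a by 0.43 and Cdkn2c by 0.55, the last named after its value was seen. Against PWD, 0 of these 7 were called in PWDxB6, with a median of 0.07. Over all tested genes 2.31% were called by limma in that comparison, and 1954 had an unadjusted p under 0.05.

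Of 18 genes of the anaphase-promoting complex and cyclin degradation, 2 rose in B6xPWD against B6, where 9.7% of all genes were called higher: Cdc20, an activator of that complex (0.81, SE 0.187, adjusted p = 0.00587), and Anapc11 (0.60, SE 0.149, adjusted p = 0.00894). Of 15 checkpoint and division kinases 3 rose, Aurkb (0.49), Chek2 (0.39) and Plk4 (0.42). Of 9 CDK-activating or inhibiting enzymes and subunits 2 rose, Cdk7 (0.70), the kinase that activates CDKs, and Cks1b (0.55), a small CDK subunit. D-type cyclins and the Rb and E2F genes went both ways in 13 tested genes, with Ccnd1 (0.42) and E2f5 (0.56) higher and Rbl2 (-0.52), Rb1 (-0.33) and E2f4 (-0.45) lower. In the list of other cyclins and CDKs, which also holds the crossover factor Ccnb1ip1, 3 of 26 genes rose and Cdk16 fell (-0.41). Those that rose were the cyclins Ccng1 (0.46) and Ccni (0.28), and Ccnb1ip1 (0.61), which is not itself a cyclin or CDK. The counts of 2 of 18, 3 of 15, 2 of 9 and 3 of 26 in these lists are to be read against that 9.7%, and those of 18 and 26 are near it. Of 8 meiotic partner genes, Hspa2 and Mybl1 among them, 0 were called, with a median of 0.19. Over all tested genes 17% were called by limma in this comparison, and 4626 had an unadjusted p under 0.05. Each of these lists comes with the differences in somatic and meiotic markers between B6xPWD and B6 given above.

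**Figure D4:**
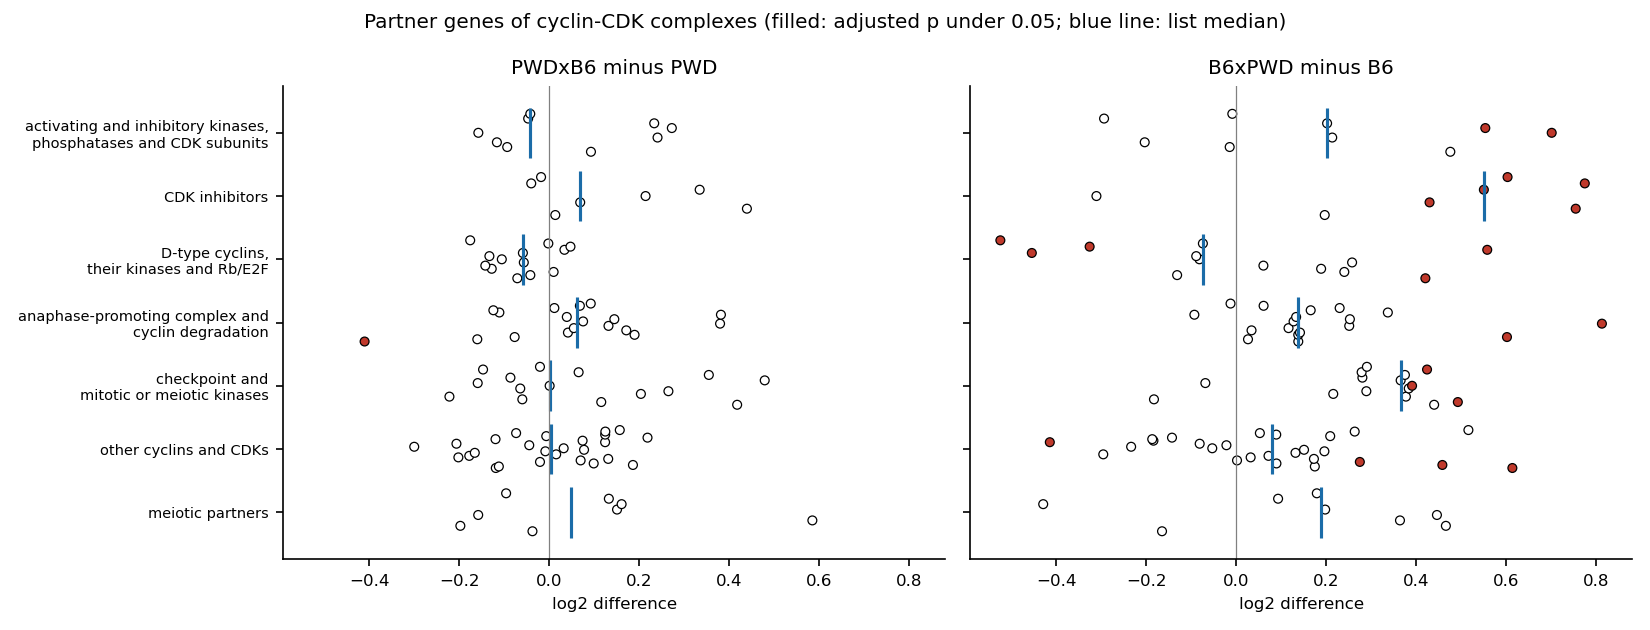
Log2 differences of 96 partner genes in 7 lists, for PWDxB6 minus PWD (left) and B6xPWD minus B6 (right). Each point is a gene, filled where the adjusted p was under 0.05, and the blue line is the median of the list; 1 point is filled on the left (Anapc1) and 21 on the right.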

How the data were processed

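The authors deposited 1 log2 value for each of 25690 probe sets on 23 arrays, after leaving out a PWDxPWK array on quality plots, per the series design text. The log2 base was inferred from the range of values, 1.17 to 13.96, array medians ran from 6.13 to 6.28, and centring stays unknown. How background was corrected and arrays normalized, and with which software, is not stated in the labels. The platform annotation named the probe sets (20777 with 1 symbol), for each gene the probe set with the highest mean was kept, and the dimmest 25% of genes by mean were dropped.

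A model of 7 genotype means (limma 3.58.1, R 4.3.3) used all 23 arrays, which leaves 16 residual degrees of freedom. A call is an adjusted p under 0.05 after Benjamini-Hochberg over 14746 genes. Differences are log2 with the model's SE and 95% confidence interval. Of the partner genes, those called in the reciprocal or same-X comparisons were named, at most 4 per list and comparison, and the 5 genes most correlated with Ccnb3 and with Ccna1. The members and lists were chosen with earlier results of these data known. The planned mean of 6 other cyclins had 5, without Ccnb1. The fit was run on simulated arrays for the reciprocal comparison (14746 genes). It recovered 53% of 100 genes shifted by 0.5 and 94% of 100 shifted by 1, with 5.77% false calls. Whether these rates hold for the measured arrays was not tested. The measured count for that comparison was 418, with 54 without PWDxB6 replicate 3 and 4635 with array weights. Same-numbered arrays of different genotypes deviated together at a median r of 0.01, so replicate numbers were not taken as pairs. Figures used Python 3.11.15 and matplotlib 3.10.9. The number of arrays limits the precision.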

Additional observations from a re-analysis of the deposited data

How the results depend on the processing

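The 11 comparisons of 8 genes gave 14 calls, of which 9 held their direction and call under all 34 alternatives (23 of them leaving out 1 array), among them Ccnb3 in the reciprocal (0.74 to 1.04), same-X (0.92 to 1.14 for PWDxB6, 1.15 to 1.55 for B6xPWD) and mid-parent comparisons. For the X-linked Ccnb3 the mid-parent comparisons hold part of the difference between PWD and B6. Of 74 differences that were not called, 11 were called under at least 1 alternative, and no called difference changed sign. With array weights the number of members called was 5 between the reciprocal hybrids, 4 for B6xPWD against the mid-parent, 1 (Ccnb2) between the B6 and BALB/C crosses and 1 (Ccne2) for the difference of departures. They also added Ccna1 for B6xPWD against B6xBALB/C (-0.33, adjusted p = 0.00893) and Ccna2 for B6xPWD against B6 (0.31, adjusted p = 0.0491). The replicate block gave 1 (Ccnb3) for B6xPWD against B6xBALB/C, where Cdk1 had adjusted p = 0.123, 1 (Ccnb2, adjusted p = 0.00995) for the B6 and BALB/C crosses and 1 (Ccne2, adjusted p = 0.0434) for the difference of departures, and B6xBALB/C replicates 1 to 3 alone gave the same counts. The block fit leaves out B6xBALB/C replicates 4 to 6 as well, and both settings gave 3 in place of 2, with Ccne2, for B6xPWD against the mid-parent. They changed no other call of a member.

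Leaving out 1 array gave 1 to 2 members called for PWDxB6 against PWD and against the mid-parent, 2 to 5 for B6xPWD against B6, 0 to 1 for PWDxB6 against PWDxPWK, 1 to 2 for B6xPWD against B6xBALB/C, 0 to 1 for the B6 and BALB/C crosses and 0 to 1 for the difference of departures. Over all genes, the reciprocal count of 418 was 4635 with array weights, 1044 with the replicate block, 931 with B6xBALB/C replicates 1 to 3 and 207 with those groups fitted alone. The 99 of PWDxB6 against the mid-parent were 212, 239, 227 and 174 in that order. The 340 of PWDxB6 against PWD were 1005 with array weights, the 2503 of B6xPWD against B6 were 4260 and, fitted alone, 1622, the 2135 of B6xPWD against the mid-parent were 5968, the 1371 against B6xBALB/C were 4953 and the 1328 of the difference of departures were 3313. The 211 of PWDxB6 against PWDxPWK were 137 fitted alone and 139 at the 50% filter. The 65 of the B6 and BALB/C crosses ran from 0 to 1618. Leaving out 1 array also lowered these counts: 418 to 54, 59 and 81 without PWDxB6 replicate 3, B6xPWD replicate 2 and PWDxB6 replicate 1, 2135 to 389, 1371 to 570 and 2503 to 1211 without B6xPWD replicate 2, 99 to 30 without PWDxB6 replicate 2, 340 to 186 without PWD replicate 2, 211 to 94 without PWDxPWK replicate 1, 2719 (PWD against B6) to 1802 without PWD replicate 2 and 1328 to 788 without PWDxB6 replicate 3. Without B6xBALB/C replicate 6, 418 became 851 and 99 became 162. The causes were not tested. Ccnb3 minus the other cyclins moved by less than 1 SD in every genotype under quantile normalization. Its values without each array, chosen after seeing the data, cannot move a group mean by 1 SD and so say nothing about its stability. Signal over background could not be judged, which limits Ccna1 most.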
